A study of Rattus norvegicus with 27 samples.

Results

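Zfp771, Sympk, Dapk3, Adgrb2 and Pcsk1n are 5 genes whose signal in tail motor neurons of the rat was higher after spinal cord transection than after a sham operation on every array, at 21 and at 60 days. They are 5 of the 9769 genes that had a probe set with a single gene symbol, and each had 1 such probe set. They were chosen by their transected minus sham differences at both times. The sizes of these differences are therefore given as a description with no test, and nothing is supported with them. Tests were kept to other contrasts: the change from day 21 to day 60 within each operation, the variation from array to array within the groups, and the relation to the RNA quality controls of the array. The change between days uses the arrays that chose the genes. Choosing genes that differed at both times bears on its size, so no conclusion is drawn from its outcome.

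The samples were motor neurons of the sacral cord from adult male Wistar rats, labelled from the tail with the retrograde tracer Fluorogold and cut from frozen sections by laser. In the group Spi-21 the cord had been transected at S2, with removal of a piece of tissue, 21 days earlier (8 arrays), and in Spi-60 60 days earlier (8 arrays). ShamC-21 (6 arrays) and ShamC-60 (5 arrays) had the vertebrae opened and the dura left intact, and were taken at the same times. All 4 groups had the laminectomy, the tracer and buprenorphine for pain. Each sample held 100 to 200 neurons per its label (50 to 200 per the series text), and its RNA was amplified in 2 rounds before hybridisation to Affymetrix rat expression arrays. The labels number the samples as biological replicates without tying them to animals, so a p-value measures the spread between these samples. In such pooled samples, fewer cells of a type and less RNA per cell cannot be told apart.

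The 5 genes act at different places in the cell. Zfp771 encodes a zinc finger protein, a class of proteins that mostly bind DNA. Sympk encodes symplekin, the scaffold on which the machinery that cuts and polyadenylates the 3' end of messenger RNA is assembled. Dapk3 (ZIP kinase) is a serine/threonine kinase of the death-associated family that phosphorylates the myosin light chain and takes part in contractility and cell death. Adgrb2 (BAI2) is an adhesion G protein-coupled receptor found mainly in the nervous system. Pcsk1n encodes proSAAS, a granin-like neuropeptide precursor of the secretory pathway that inhibits prohormone convertase 1. Tail motor neurons cut off from the brain lose descending control and are known for firing long, spastic discharges weeks later.

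RefSeq start windows of 300 bases (250 before to 50 after the annotated start, rat build GRCr8) are shown for 3 of the genes: Zfp771 and Sympk, whose signals varied most closely together within the groups, and Adgrb2, whose window differed most from them in base composition. CG dinucleotides are in capitals, and each window is written 5' to 3' on the strand of its gene. The Zfp771 window is chr1:191294280-191294579 (plus strand), the Sympk window chr1:87800166-87800465 (plus strand) and the Adgrb2 window chr5:147615262-147615561 (plus strand).
Zfp771: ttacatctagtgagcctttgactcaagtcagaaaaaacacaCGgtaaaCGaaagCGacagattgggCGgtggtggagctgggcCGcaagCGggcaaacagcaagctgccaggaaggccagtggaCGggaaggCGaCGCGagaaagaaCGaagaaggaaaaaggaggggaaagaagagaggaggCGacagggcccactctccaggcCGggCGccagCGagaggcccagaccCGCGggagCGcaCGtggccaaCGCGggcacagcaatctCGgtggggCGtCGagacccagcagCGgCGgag
Sympk: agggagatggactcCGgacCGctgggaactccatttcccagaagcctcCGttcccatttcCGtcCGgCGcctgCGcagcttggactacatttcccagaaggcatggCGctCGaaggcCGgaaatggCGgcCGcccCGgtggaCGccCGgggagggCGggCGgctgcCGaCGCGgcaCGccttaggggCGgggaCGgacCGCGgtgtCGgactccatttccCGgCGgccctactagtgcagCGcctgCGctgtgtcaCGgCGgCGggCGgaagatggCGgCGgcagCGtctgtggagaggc
Adgrb2: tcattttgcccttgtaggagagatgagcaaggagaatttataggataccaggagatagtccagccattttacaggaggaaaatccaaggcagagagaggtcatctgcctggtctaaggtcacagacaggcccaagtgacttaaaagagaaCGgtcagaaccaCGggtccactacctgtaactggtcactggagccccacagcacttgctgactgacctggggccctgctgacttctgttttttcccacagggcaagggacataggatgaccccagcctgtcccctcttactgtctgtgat
The Sympk window held 37 CG dinucleotides with 70.3% G and C, and the Zfp771 window 26 with 62.3%. The Adgrb2 window held 2 with 51.3%, and its annotated start lies inside the gene and not at its outer end. Dapk3 (chr7:9183223-9183522, minus strand) had 24 and Pcsk1n (chrX:17255356-17255655, minus strand) 19. The median over the 8069 measured genes with a window was 19 CG dinucleotides and 59.7% G and C. Only the Adgrb2 window, whose annotated start lies inside the gene, fell below this median count.

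Short motifs were searched on both strands of these windows. GGGCGG, the GC box, was in the windows of Zfp771, Sympk and Pcsk1n, and in 57.4% of all 8069. CCAAT was in those of Zfp771 and Dapk3, and in 37.7% of all. CCGGAA, an ETS core, was in those of Sympk and Dapk3 (25.1% of all), and TGCGCA in those of Sympk and Pcsk1n (12.5% of all). TATAAA was in that of Adgrb2 (8.85% of all), CACGTG in that of Zfp771 (8.86% of all) and AAGATGGC in that of Sympk (4.87% of all). TGACGTCA was in none of the 5 windows, and in 2.83% of all. No motif searched was in the windows of all 5 genes.

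Values are log2 signals after RMA (a correction of background, a normalization between arrays and a summary of the probes of a set), and a difference is transected minus sham on that scale unless stated. The 27 arrays had medians from 6.31 to 6.41 over the table. Of 19 motor neuron markers, 15 were measured. Filaments and peripherin were high (Nefh at 14.3, Prph at 12.97, the choline transporter Slc5a7 at 10.9, means of 27 arrays), Isl1, Isl2, Lhx4 and Mmp9 lay between 5.43 and 6.09, and Chat, Mnx1, Lhx3 and Chodl are not analysed here. Slc18a3 averaged 7.24 in ShamC-21, 7.56 in Spi-21, 6.76 in ShamC-60 and 8.24 in Spi-60. Its difference at 60 days, 1.48, ranked 20 among genes. Some libraries stood apart. The mean of the motor neuron markers was 8.41 on ShamC-60 replicate 4 and 9.60 to 10.1 on every other array, and the mean of 8 fibroblast markers was 8.06 on ShamC-60 replicate 1 and 5.48 to 6.83 on every other array. The GAPDH control, read as its 3' minus its 5' probe set, lay at 2.57 to 3.47 on Spi-21 replicates 1 to 4 and at 0.98 to 1.46 on replicates 5 to 8. Results that rest on these libraries are given with and without them. The exceptions are the transected minus sham tests of the controls and marker means, which were run on all arrays only.

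Zfp771 had the narrowest spread within the transected groups. Its signal on the 6 ShamC-21 arrays ran from 9.54 through a median of 9.95 to 10.28, and on the 8 Spi-21 arrays from 11.10 through 11.59 to 11.67. The groups did not overlap, and 0.82 lay between the lowest transected and the highest sham array. At 60 days the ShamC-60 arrays read 9.54, 10.19, 9.99, 9.47 and 10.27, and the Spi-60 arrays ran from 11.50 through 11.65 to 12.20, a gap of 1.23. The difference was 1.56 ± 0.14 (SE, 6 against 8 arrays; 2.94-fold) at 21 days and 1.88 ± 0.15 (5 against 8 arrays; 3.67-fold) at 60 days.

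Sympk showed the largest difference of the 5 at both times. Its ShamC-21 arrays ran from 6.17 through 6.56 to 6.96 and its Spi-21 arrays from 8.06 through 8.55 to 9.20. Replicate 4 was the lowest transected array of day 21 and replicate 3 the highest. At 60 days the sham arrays read 6.28, 6.96, 6.89, 5.92 and 6.81, and the transected arrays ran from 7.89 through 8.49 to 9.40. The difference was 2.01 ± 0.22 (4.02-fold) at 21 days and 2.02 ± 0.23 (4.07-fold) at 60 days, with gaps between the groups of 1.10 and 0.93.

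Dapk3, the kinase, had a low signal in sham neurons. Its ShamC-21 arrays ran from 5.33 through 5.51 to 5.77 and its Spi-21 arrays from 6.57 through 7.05 to 7.46. At 60 days the sham arrays read 5.58, 5.14, 5.45, 5.31 and 5.66 and the transected arrays ran from 6.66 through 7.02 to 7.51. The groups did not overlap, and the gap between them was 0.80 at 21 days and 1.00 at 60 days. The difference was 1.54 ± 0.15 (2.90-fold) at 21 days and 1.65 ± 0.16 (3.15-fold) at 60 days.

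Adgrb2, the adhesion receptor, moved by a similar amount at both times. Its ShamC-21 arrays ran from 5.64 through 5.88 to 6.14 and its Spi-21 arrays from 7.21 through 7.84 to 8.07, with replicate 4 again the lowest transected array. At 60 days the sham arrays read 5.56, 5.96, 6.23, 6.20 and 6.25 and the transected arrays ran from 7.33 through 7.78 to 8.46. The groups were apart by 1.07 and 1.08. The difference was 1.88 ± 0.15 (3.69-fold) at 21 days and 1.76 ± 0.16 (3.39-fold) at 60 days.

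Pcsk1n, the proSAAS gene, was the most variable of the 5 on the Spi-21 arrays. Its ShamC-21 arrays lay close together, from 7.13 through 7.24 to 7.39, while the Spi-21 arrays ran from 7.77 through 8.44 to 9.80. The SD was 0.82 in Spi-21 (n = 8) and 0.12 in ShamC-21 (n = 6), and the gap between these groups was 0.38. At 60 days the sham arrays read 6.83, 7.07, 7.45, 6.66 and 7.58 and the transected arrays ran from 8.53 through 8.87 to 9.60, with a gap of 0.95. The difference was 1.49 ± 0.26 (2.81-fold) at 21 days and 1.87 ± 0.28 (3.65-fold) at 60 days.

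Each of the 5 genes was higher on all 16 transected arrays than on any of the 11 sham arrays. Among all 12913 probe sets tested, 134 were (1.04%). Within day 21 all transected arrays were above all sham arrays for 3.07% of probe sets, within day 60 for 4.78%, and within both days for 1.27%. Nothing is read from this, since the choice used it. ShamC-60 replicate 4 was the lowest array of its group for Zfp771, Sympk and Pcsk1n, and Spi-60 replicate 5 was the highest of its group for all 5 genes.

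**Figure D1:**
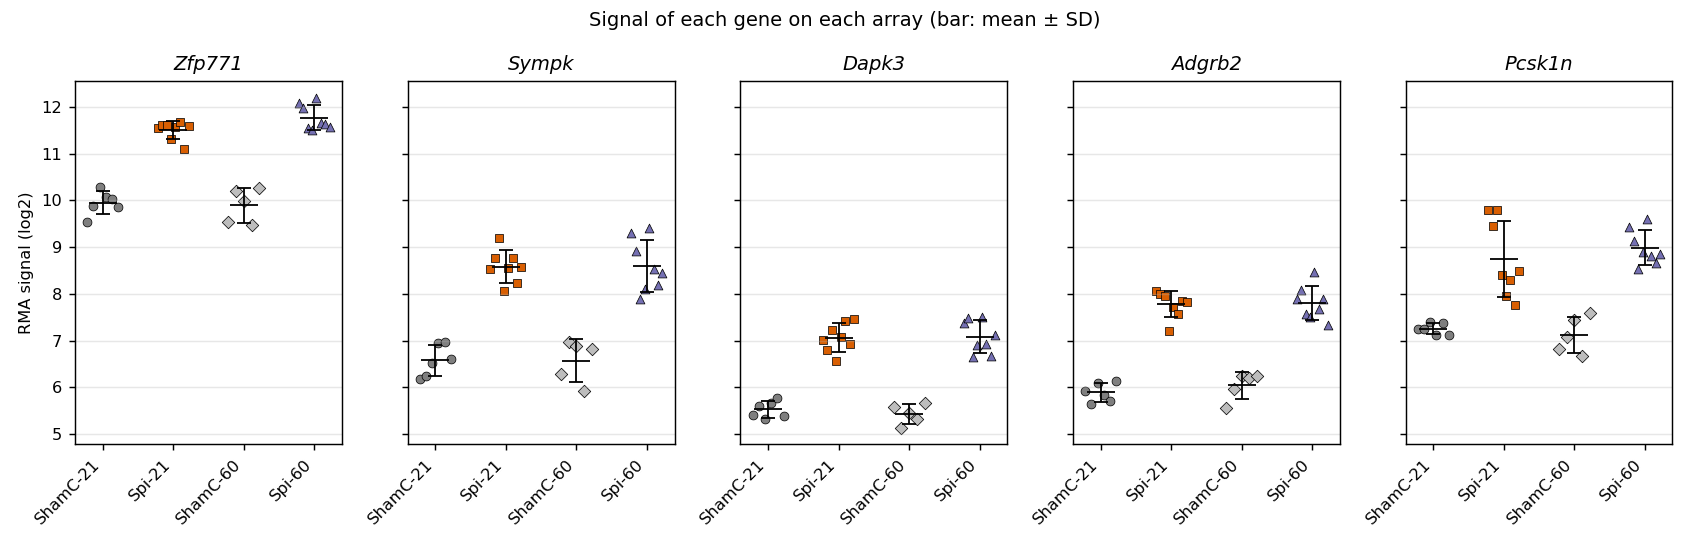
Each panel shows 1 gene. The vertical axis is the RMA signal (log2), each symbol is 1 array of ShamC-21 (n = 6), Spi-21 (n = 8), ShamC-60 (n = 5) or Spi-60 (n = 8), and bars give the mean and SD. In every panel the transected arrays lie above the sham arrays, and Pcsk1n on the Spi-21 arrays spreads from 7.77 to 9.80.

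In the order of genes by difference, Sympk ranked 4, Adgrb2 5, Zfp771 7, Dapk3 8 and Pcsk1n 9 of 9769 at 21 days. At 60 days Sympk ranked 3, Zfp771 5, Pcsk1n 6, Adgrb2 9 and Dapk3 12. Just above and below them at 21 days stood Clcn3 at 2.20 ± 0.26, Sptbn4 at 1.72 ± 0.21 and Cdh13 at 1.40 ± 0.26. At 60 days their neighbours were Clcn3 at 2.41 ± 0.27, Apoe at 1.91 ± 0.25, Slc45a1 at 1.87 ± 0.28, Ctsd at 1.80 ± 0.19, Cdh13 at 1.74 ± 0.27, Sptbn4 at 1.69 ± 0.22 and Eef1a2 at 1.64 ± 0.21. Each of the 5 genes differed from its neighbours in this order by less than the larger of the 2 standard errors, except from Clcn3 above Sympk at 60 days. The comparisons of the 2 days use different sham arrays and different transected arrays.

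**Figure D2:**
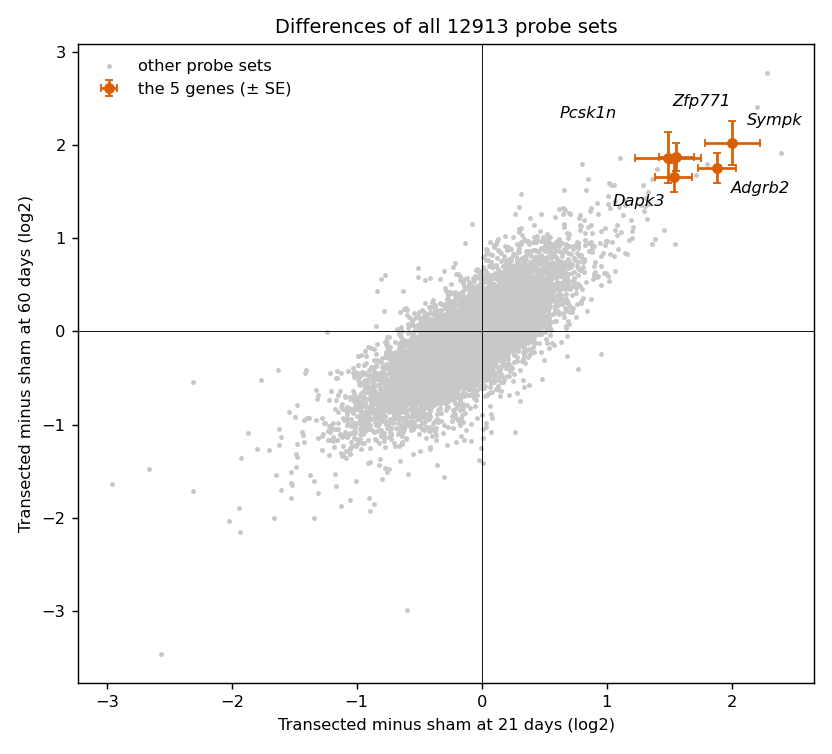
Each grey point is a probe set. The axes give transected minus sham at 21 days and at 60 days (log2), and the orange points are the 5 genes with their standard errors. They lie at 1.49 to 2.01 on the horizontal axis and 1.65 to 2.02 on the vertical axis.

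Between 21 and 60 days none of the 5 genes passed the test, within sham or within transected neurons. The genes were chosen on these arrays for a difference at both times, so this outcome does not show that their signals stayed the same. In sham animals the 60 minus 21 day difference was -0.05 for Zfp771, -0.00 for Sympk, -0.10 for Dapk3, 0.15 for Adgrb2 and -0.13 for Pcsk1n, with adjusted p = 0.999 for each in limma. Of all probe sets 0% passed in that comparison, and 513 had an unadjusted p below 0.05. None of the 5 genes did. The 95% intervals ran from -0.74 to 0.51 over the 5 genes.

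In transected neurons Zfp771 was 0.27 ± 0.13 higher at 60 than at 21 days (95% interval -0.00 to 0.53, limma adjusted p = 0.378). Pcsk1n differed by 0.24 ± 0.24 (-0.26 to 0.74, adjusted p = 0.728). Sympk, Dapk3 and Adgrb2 each differed by 0.02, with adjusted p of 0.987, 0.974 and 0.968 in limma. Their intervals reached from -0.40 to 0.43 for Sympk, from -0.26 to 0.30 for Dapk3 and from -0.27 to 0.32 for Adgrb2. Of all probe sets 11 passed in this comparison (0.0852%), while 1706 had an unadjusted p below 0.05, and none of the 5 genes was among either.

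The change of the transection effect from day 21 to day 60 is made of the differences that chose the genes, so it is given with no test. It was 0.32 ± 0.20 (SE) for Zfp771, 0.38 ± 0.38 for Pcsk1n, 0.12 ± 0.22 for Dapk3, -0.12 ± 0.22 for Adgrb2 and 0.02 ± 0.32 for Sympk.

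Pcsk1n on the Spi-21 arrays followed the split of the GAPDH control. It ran from 8.40 to 9.80 on replicates 1 to 4 (mean 9.36) and from 7.77 to 8.48 on replicates 5 to 8 (mean 8.13), a difference of 1.23. The GAPDH control differed by 1.69 between the same arrays and the beta-actin control by -0.05. Zfp771 differed by 0.03, Adgrb2 by 0.06, Sympk by 0.12 and Dapk3 by -0.32. Without replicates 1 to 4 the Pcsk1n difference at 21 days was 0.88 ± 0.20, and without replicates 5 to 8 it was 2.11 ± 0.24. Without replicates 1 to 4, Pcsk1n was 0.86 higher at 60 than at 21 days in transected neurons (limma adjusted p = 0.00835). Without replicates 5 to 8 it was lower, at -0.37. These subsets follow the split just seen in Pcsk1n, so nothing is read from this p-value. The labels name no batch for these arrays, and the part of the split in the Pcsk1n values was not tested.

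The quality controls also differed between transected and sham arrays. In arrays made from amplified RNA, the 3' probe set of a control gene reads higher than its 5' probe set where transcripts are shortened towards the 3' end. For beta-actin this difference was 3.21 ± 0.29 (SD, n = 8) in Spi-21 and 2.28 ± 0.23 (n = 6) in ShamC-21, higher by 0.92 (two-sided exact permutation p = 0.000666, adjusted over 24 tests 0.00932). At 60 days it was 3.27 ± 0.30 (n = 8) against 2.22 ± 0.18 (n = 5), higher by 1.05 (exact permutation p = 0.00155, adjusted 0.00932). On every transected array the beta-actin value was above that of every sham array, as were the signals of the 5 genes. For GAPDH transected minus sham was -0.84 at 21 days (2.13 ± 0.95 against 2.97 ± 0.22, exact permutation, adjusted p = 0.152). At 60 days it was 0.81 (3.38 ± 0.37 against 2.57 ± 0.25, exact permutation, adjusted p = 0.0149). The 21 day value rests on Spi-21 replicates 5 to 8, whose mean was 1.29. Replicates 1 to 4 had a mean of 2.98, beside 2.97 in ShamC-21.

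Within the groups no relation of the 5 genes to the beta-actin control passed the test. Pearson's r of their deviations from the group means with those of beta-actin over 27 arrays was -0.24 for Zfp771 (Spearman's rho -0.25), -0.20 for Sympk (-0.16), -0.14 for Adgrb2 (-0.21), 0.01 for Pcsk1n (-0.00) and 0.04 for Dapk3 (0.12). The smallest permutation p was 0.230, and the smallest adjusted over the family of 10 relations was 0.499. Without the 2 arrays farthest from the median of the control (Spi-60 replicates 2 and 4) r lay between -0.12 and 0.28. Over the 11 sham arrays alone r ran from -0.54 to 0.21, and over the 16 transected arrays from -0.13 to 0.08.

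For GAPDH the relation was taken over the 19 arrays without Spi-21, because the Spi-21 arrays fell into the clusters described above. Pearson's r was 0.56 for Dapk3 (permutation p = 0.0412, adjusted 0.412; rho 0.46, p = 0.0921), 0.41 for Sympk (rho 0.34), 0.40 for Pcsk1n (rho 0.36), 0.29 for Zfp771 (rho 0.29) and 0.19 for Adgrb2 (rho 0.20). None of the 10 relations passed, and 1 of them, that of Dapk3, had an unadjusted p below 0.05. Without Spi-60 replicates 1 and 7, the 2 farthest, r lay between 0.18 and 0.39, lower than before for 4 of the genes and higher for Adgrb2 (0.25). Without ShamC-60 replicates 1 and 4 r lay between 0.42 (Adgrb2) and 0.54 (Dapk3), with 0 of 10 relations at an unadjusted permutation p below 0.05 and a smallest adjusted p of 0.321. With the 3' minus the middle probe set of GAPDH in place of the 5' one, r was 0.19 for Dapk3 and negative for the other 4 genes, down to -0.33 for Zfp771 (smallest adjusted permutation p = 0.644). With the 3' minus the 5' probe set, r over the 11 sham arrays alone ran from -0.25 to 0.17. By that same measure all 5 were positive within the 8 Spi-60 arrays, with r from 0.44 to 0.74 and a smallest exact permutation p of 0.0399 (adjusted over 40 relations 0.481). In the 6 ShamC-21 arrays the relation of Pcsk1n ran the other way, at r = -0.94 (exact permutation p = 0.0222, adjusted 0.481).

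**Figure D3:**
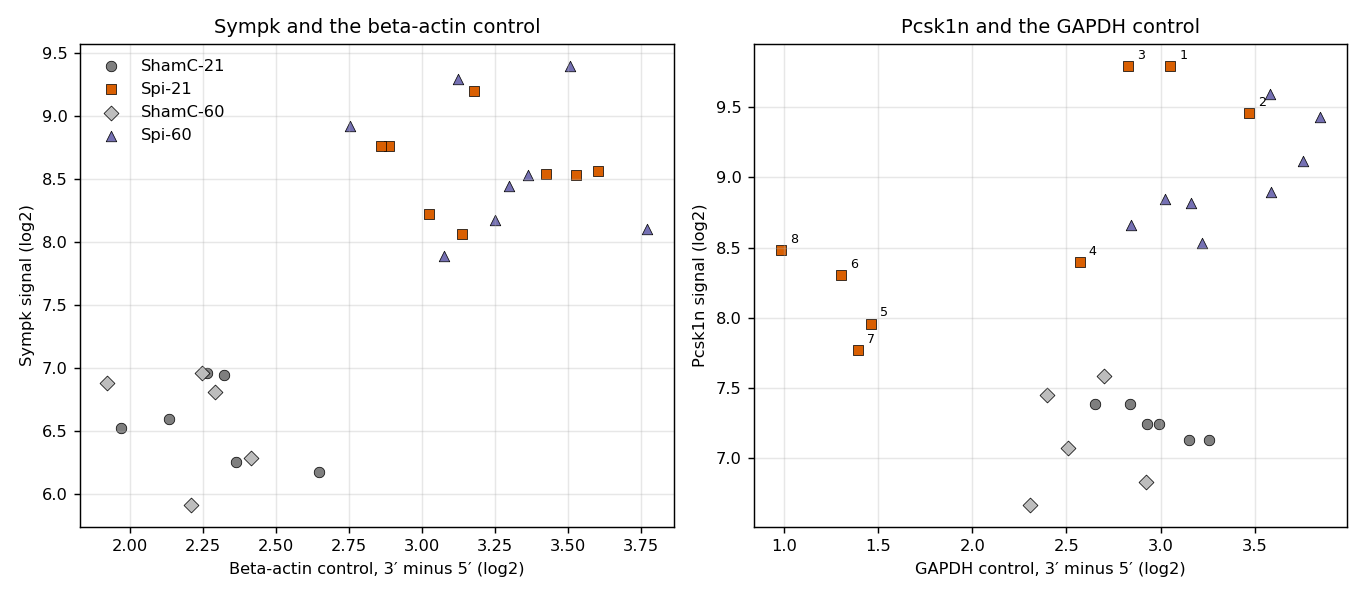
The left panel plots Sympk and the right panel Pcsk1n (log2 signal, vertical axes) against the 3' minus 5' difference of the beta-actin and the GAPDH control (log2, horizontal axes), 1 symbol per array. On the left, sham and transected arrays separate on both axes. On the right, Spi-21 replicates 1 to 4 lie at 2.57 to 3.47 and replicates 5 to 8 at 0.98 to 1.46 of the control, and numbers give the Spi-21 replicate.

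With the beta-actin control as a covariate in the limma fit the differences of the 5 genes stayed at a similar size, with wider errors. At 21 days they were 1.78 ± 0.23 for Zfp771, 2.31 ± 0.37 for Sympk, 1.49 ± 0.25 for Dapk3, 2.03 ± 0.26 for Adgrb2 and 1.47 ± 0.45 for Pcsk1n. At 60 days they were 2.13 ± 0.26, 2.37 ± 0.41, 1.60 ± 0.28, 1.93 ± 0.29 and 1.84 ± 0.50 in the same order. The count of all probe sets that passed fell from 2917 to 463 at 21 days and from 2463 to 162 at 60 days in that fit. The lowest beta-actin value of a transected array was 2.75 and the highest of a sham array 2.65. With no overlap, this fit cannot tell RNA quality from the operation, and nothing is read from the sizes it gave. With the GAPDH control as covariate Pcsk1n moved to 2.04 ± 0.22 at 21 days and 1.34 ± 0.22 at 60 days, and the other 4 genes lay between 1.49 and 2.17. Without ShamC-60 replicates 1 and 4 the differences at 60 days were 1.62 for Zfp771, 1.71 for Sympk, 1.67 for Dapk3, 1.65 for Adgrb2 and 1.62 for Pcsk1n.

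**Figure D4:**
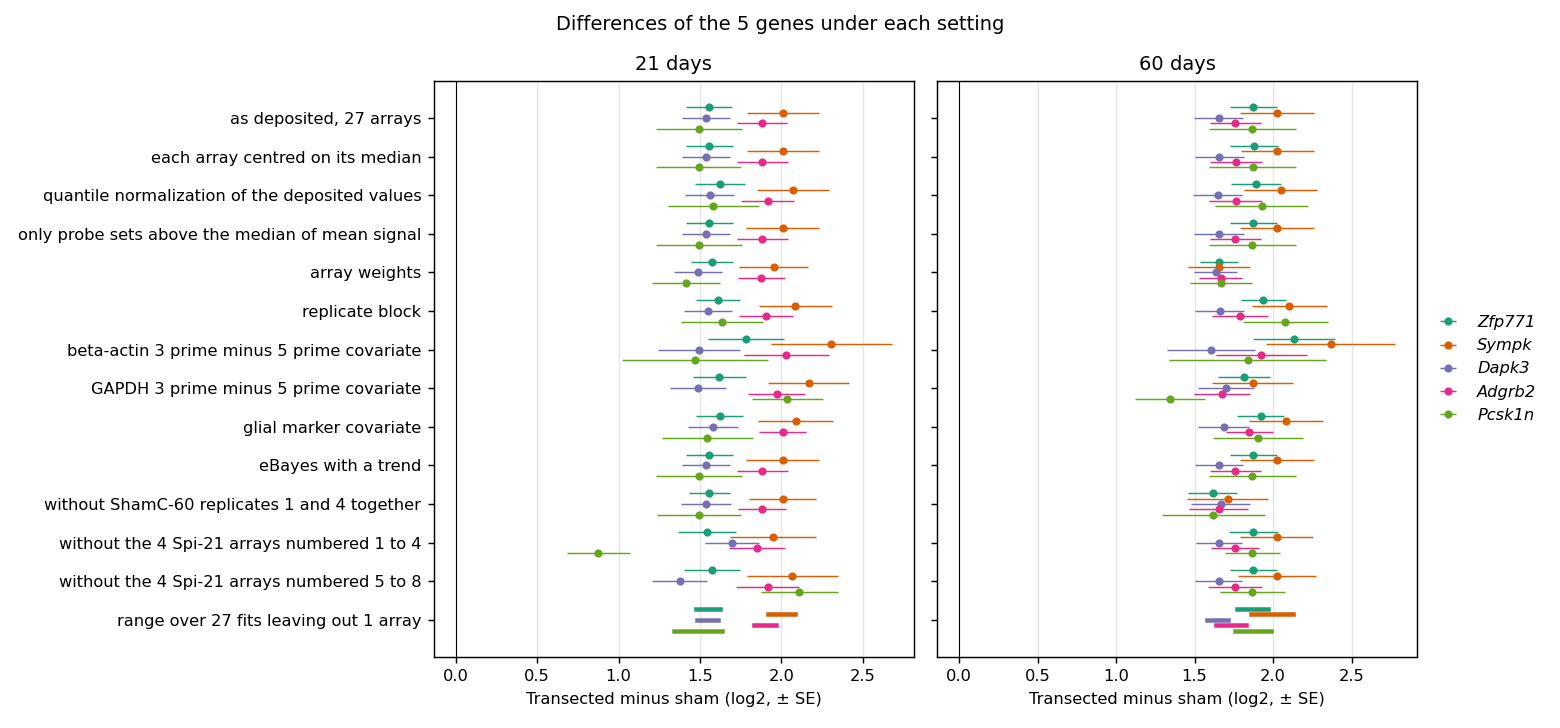
Each row is a setting of the fit and each colour a gene. Points give transected minus sham (log2) with the standard error at 21 days (left) and 60 days (right), and thick bars in the last row give the range when 1 array at a time is left out. The values stay between 1.34 and 2.37 except for Pcsk1n at 21 days without Spi-21 replicates 1 to 4, at 0.88.

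From array to array within the groups, most of the 5 genes varied together. Zfp771 and Sympk were the closest pair, with Pearson's r of 0.83 and Spearman's rho of 0.84 over 27 arrays (permutation p = 1e-05 for each, the smallest that 100000 draws can give, adjusted over 10 pairs 1e-04). Without the 2 farthest arrays r was 0.80. Sympk was also related to Dapk3 (r = 0.64, adjusted permutation p = 0.00355) and to Pcsk1n (r = 0.60, 0.0016). Zfp771 was related to Pcsk1n (0.54, 0.00263), Adgrb2 (0.51, 0.0199) and Dapk3 (0.48, 0.0199), and Adgrb2 to Pcsk1n (0.50, 0.0166). The relation of Sympk to Adgrb2 (0.50, adjusted permutation p = 0.0228) fell to r = 0.35 without the 2 farthest arrays (p = 0.120) and so rests on them.

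Dapk3, the kinase gene, had r = 0.29 with Adgrb2 (rho 0.20, adjusted permutation p = 0.231) and 0.27 with Pcsk1n (rho 0.30, 0.241), and these were the 2 of 10 pairs that did not pass over the 27 arrays. The value with Pcsk1n rests on Spi-21 replicates 1 to 4: without them r was 0.74 (rho 0.68, adjusted permutation p = 0.0019). Spearman's rho ranged from 0.45 to 0.84 over the 8 that did, and its adjusted p was 0.0377 or below. Without ShamC-60 replicates 1 and 4 again 8 pairs passed. Without Spi-21 replicates 1 to 4 it was 7, which included Dapk3 with Pcsk1n. Adgrb2 with Sympk (r = 0.45, adjusted permutation p = 0.0934) and Adgrb2 with Pcsk1n (r = 0.49, 0.0542) then did not pass. Over the 16 transected arrays 8 pairs passed, with r from 0.27 to 0.89 over the 10. Over the 11 sham arrays r ran from -0.39 to 0.79, no pair passed, and 1 (Zfp771 and Sympk, permutation p = 0.0147, adjusted 0.147) had an unadjusted p below 0.05. Whether the pairs differ between operations was not tested.

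Pairs of probe sets on these arrays often vary together, which sets the scale for these values. The median r of Zfp771 with all probe sets was 0.05, and its r with Sympk was above that of 99.9% of them, while its r with Dapk3 was above that of 89.4%. For Pcsk1n the r with Dapk3 was above that of 71.2% of probe sets and its r with Sympk above that of 94.8%.

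Outside the 5, the genes most like Zfp771 in this variation over 27 arrays were Ndufa7, a subunit of respiratory complex I (r = 0.90), Tbrg4 (0.89) and Ankrd13d (0.88). Those most like Sympk were Tubgcp6, of the gamma-tubulin complex (0.84), and Ncaph2, of condensin II (0.83), followed by Zfp771 itself. Dapk3 was most like Nelfe, a subunit of the negative elongation factor (0.80), Zbtb18 (0.79) and Lta4h (0.77). Adgrb2 was most like Edc4, a decapping scaffold (0.80), Ica1 (0.76) and the growth factor Fgf7 (0.74), and Pcsk1n most like Hcfc1r1 (0.92), Rnf123 (0.91) and the mitochondrial dehydrogenase Acads (0.90). Apart from Zfp771, these genes differed between transected and sham neurons by far less, from -0.57 (Lta4h at 60 days) to 0.81 (Acads at 21 days).

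Sympk was set beside the genes of the machinery it works in. Of 17 measured genes of cleavage and polyadenylation, 0 rose and 5 fell at 21 days, and 2 rose and 6 fell at 60 days by limma, while of all probe sets 22.6% passed at 21 days (11.3% rose, 11.2% fell) and 19.1% at 60 days (10.2% rose, 8.92% fell). At an unadjusted p below 0.05 these counts were 1 and 7, and 2 and 9. With quantile normalization 2 rose and 4 fell at 21 days. The list's median difference was -0.30 and -0.33, beside 0.01 and 0.02 over all probe sets. Pcf11, a subunit of the cleavage factor, fell by 1.05 ± 0.19 at 21 days and fell by 1.09 ± 0.20 at 60 days (adjusted p = 0.000369 and 0.000386 in limma). The poly(A) polymerase gene Papolg fell by 1.26 ± 0.28 at 21 days (limma adjusted p = 0.0023) and fell by 0.99 ± 0.29 at 60 days (0.0188, a call that ended without ShamC-60 replicate 4).

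Clp1 at -0.68 (adjusted p = 0.00589) and the cytoplasmic polyadenylation protein gene Cpeb1 at -0.51 (0.00972) passed at 21 days only, and the poly(A) polymerase gene Papola fell by 1.08 ± 0.24 at 60 days (0.00262, limma). At 21 days Papola was at -0.63 (0.0456), a call that ended when any 1 of 14 arrays was left out. The endonuclease gene Ints11 rose by 0.50 (adjusted p = 0.00224) and Cpsf1 by 0.34 (0.0232) at 60 days, the latter not without ShamC-60 replicate 3. Other probe sets of these genes went the other way: another probe set each of Pcf11, Clp1 and Papola lay at 0.25, 0.26 and 0.14 at 21 days and did not pass, and 1 of 2 further probe sets of Papolg rose by 0.40 (limma adjusted p = 0.00475). The counts use 1 probe set per gene. At 21 days further probe sets of Cstf1 (0.54, limma adjusted p = 0.000103), Wdr33 (0.55, 0.00642) and Cpsf7 (0.33, 0.0148) rose. At 60 days further ones of Wdr33 (0.47, 0.0243), Pabpn1 (0.47, 0.0109), Papolg (0.33, 0.025) and Rbbp6 (0.43, 0.0101) rose. Another of Rbbp6 was lower, at -0.52 (0.0102). Without Spi-21 replicates 1 to 4 the counts at 21 days were 0 and 2, and without ShamC-60 replicates 1 and 4 those at 60 days were 1 and 2. Leaving out ShamC-60 replicate 1 alone left 3 that fell at 60 days, ShamC-60 replicate 3 alone left 1 that rose, and Spi-21 replicate 7 alone gave 1 that rose at 21 days.

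Around Dapk3, 2 of 18 measured genes of its kinase family and of myosin regulation rose and 1 fell at 21 days, and 3 rose and 2 fell at 60 days, with medians of -0.02 and -0.01. Over all probe sets 22.6% passed at 21 days and 19.1% at 60 days, and the list's counts lie near that background. Of its closest relatives, Dapk2 rose by 0.43 ± 0.11 at 21 days (limma adjusted p = 0.00613) and was at 0.06 at 60 days, and Dapk1 was at -0.38 and -0.54 without passing (adjusted p = 0.372 and 0.231). The myosin phosphatase inhibitor gene Ppp1r14a rose by 0.62 ± 0.15 at 21 days (0.00439), and Ppp1cb, the catalytic subunit of that phosphatase, fell by 0.75 ± 0.22 and fell by 1.00 ± 0.23 (0.0147 and 0.00307). At 60 days Ppp1r14a was at 0.47 (0.0342) and Ppp1r12c, a targeting subunit, at 0.56 (0.028). Both calls ended without ShamC-60 replicate 4, as did the 3 rises at 60 days together, and the count of rises was 1 without Spi-60 replicate 1, Spi-60 replicate 7 or ShamC-60 replicate 5. At 60 days 1 gene fell without Spi-60 replicate 5, and at 21 days 2 fell without ShamC-21 replicate 3 or ShamC-60 replicate 4. Without ShamC-60 replicates 1 and 4 there were 0 rises and 2 falls at 60 days, and without Spi-21 replicates 1 to 4 there were 1 and 2 at 21 days.

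Of 12 other adhesion G protein-coupled receptors measured, 2 rose and 0 fell at 21 days (5 and 1 at an unadjusted p below 0.05), and 2 rose and 2 fell at 60 days, beside 22.6% and 19.1% called over all probe sets. The cadherin-like receptor gene Celsr2 rose by 0.49 ± 0.15 and 0.60 ± 0.15 (limma adjusted p = 0.0177 and 0.00747) and Adgrg1 (GPR56) by 0.35 ± 0.11 and 0.54 ± 0.11 (0.0185 and 0.00142). Both differences were smaller than those of Adgrb2. The nearest relatives Adgrb1 and Adgrb3 are not analysed here. The 2 falls at 60 days, Adgra3 at -0.31 and Adgrv1 at -0.56, ended without ShamC-60 replicate 1, ShamC-60 replicate 4, Spi-60 replicate 1 or Spi-60 replicate 2, and 1 was left without any of Spi-60 replicates 3 to 7. Another probe set of Adgra3 lay at 0.14 at 60 days and did not pass (limma adjusted p = 0.387). At 21 days the count of rises was 4 without Spi-21 replicate 6 or 7, 0 without Spi-21 replicates 1 to 4, and 1 gene fell without Spi-21 replicate 5. Without ShamC-60 replicates 1 and 4 the 60 day counts were 1 and 0.

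Of 10 measured genes of proteins that bind receptors of the Adgrb family, 1 rose and 1 fell at 21 days and 2 rose and 1 fell at 60 days, again beside 22.6% and 19.1% over all probe sets. The scaffold gene Magi3 fell by 0.64 ± 0.16 at 21 days (limma adjusted p = 0.00699) and Elmo2, of a Rac activator complex, rose by 0.35 ± 0.10 at 60 days (0.0151). Another probe set of Magi3 lay at -0.25 at 21 days and did not pass (0.0794). Bcr rose by 0.48 ± 0.15 at 60 days (0.0242) and C1ql3 was at -0.62 (0.0279). Both of the latter calls ended without ShamC-60 replicate 4, and that of Bcr also without ShamC-60 replicate 2, Spi-60 replicate 1 or Spi-60 replicate 5, each of which left 1 rise. Rtn4r, the Nogo receptor gene, was at 0.33 at 21 days (0.0303), a call that ended when any 1 of 6 arrays of that day was left out (Spi-21 replicates 1, 2 and 3, ShamC-21 replicates 1, 2 and 4). At 21 days 2 genes rose without Spi-21 replicate 5, Spi-21 replicate 8 or ShamC-21 replicate 3, and at 60 days the counts were 1 and 0 without ShamC-60 replicates 1 and 4.

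Pcsk1n acts among the genes of prohormone processing and dense-core granules. Of 20 measured, 2 rose and 3 fell at 21 days, where 22.6% of all probe sets passed (11.3% rose, 11.2% fell), and 4 rose and 4 fell at 60 days, where 19.1% passed. The medians were -0.10 and -0.01 (limma). The granin gene Chgb fell by 0.77 ± 0.19 at 21 days and fell by 1.24 ± 0.20 at 60 days (adjusted p = 0.00526 and 0.000136) and the protease gene Ctsl fell by 0.67 ± 0.20 and fell by 1.04 ± 0.21 (0.0163 and 0.000965). The carboxypeptidase gene Cpd rose by 0.90 ± 0.18 at 21 days (0.00119) and was at 0.59 at 60 days (0.0304). At 60 days the granule protein gene Ptprn rose by 0.75 ± 0.17 (0.00298) and Nucb2 fell by 0.66 ± 0.16 (0.00495).

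The convertase gene Pcsk2 was at -0.11 and -0.05 and its chaperone Scg5 at -0.11 and -0.28, and neither passed. Pcsk1, whose product proSAAS inhibits, and Cpe are not analysed here. The 21 day counts became 1 and 2 without ShamC-21 replicate 1, 2, 4, 5 or 6 or Spi-21 replicate 1 or 3, 1 and 3 without Spi-21 replicate 2, and 1 and 0 without Spi-21 replicates 1 to 4. The 60 day counts were 1 and 3 without ShamC-60 replicates 1 and 4. The 60 day Cpd call ended without Spi-60 replicate 5 or 8 or ShamC-60 replicate 3 or 5.

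Beside Zfp771, 106 other genes with a symbol of the Zfp or Znf series were measured. At 21 days 6 rose and 17 fell, and at 60 days 8 rose and 11 fell, with medians of -0.07 and -0.05 (limma). These counts lie near the 22.6% and 19.1% called over all probe sets. Zfp131 fell by 1.49 ± 0.35 at 21 days and fell by 1.45 ± 0.37 at 60 days (adjusted p = 0.00394 and 0.00722), and Zfp655 fell by 0.94 ± 0.19 and fell by 0.80 ± 0.20 (0.000998 and 0.00569). Zfp347 fell by 1.31 ± 0.26 at 21 days (0.00106). The largest rises named here were those of Zfp428, 0.79 ± 0.15 and 0.66 ± 0.15 (0.000564 and 0.0037), and of Zfp462 at 60 days, 0.80 ± 0.18 (0.00291), and Zfp358 rose by 0.48 and 0.30 (0.000185 and 0.0151). Another probe set of Zfp131, another of Zfp428 and both further ones of Zfp655 did not pass at either day.

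Without Spi-21 replicates 1 to 4 these counts at 21 days were 3 and 5, and without replicates 5 to 8 they were 13 and 25. Without ShamC-60 replicates 1 and 4 the counts at 60 days were 1 and 2. Leaving out ShamC-60 replicate 1 or 4 alone gave 4 and 8, Spi-60 replicate 5 alone gave 5 and 11, and ShamC-60 replicate 5 alone gave 8 and 17.

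Fewer genes of these lists passed with the beta-actin control in the fit, as was so over all probe sets. With the beta-actin covariate, where 463 of all probe sets passed at 21 days and 162 at 60 days, the cleavage and polyadenylation genes had 0 rises and 2 falls at 21 days and 0 and 1 at 60 days. The Zfp and Znf genes had 0 and 6, then 0 and 0, in that fit. The Dapk3 list had 2 and 0, then 0 and 0, the prohormone list 0 and 0, then 0 and 1, and the adhesion receptors and the Adgrb partners 0 and 0 at both days. With the GAPDH covariate 3957 of all probe sets passed at 21 days and 869 at 60 days. The counts of rises and falls were then 1 and 5, and 1 and 1, for cleavage and polyadenylation, and 12 and 26, and 2 and 1, for the Zfp and Znf genes. They were 5 and 1, and 0 and 0, for the Dapk3 list, 3 and 2, and 0 and 3, for the prohormone list, 4 and 0, and 1 and 0, for the adhesion receptors, and 2 and 1, and 0 and 1, for the Adgrb partners. The fit with beta-actin cannot tell RNA quality from the operation, and the part of RNA quality in these counts was not tested.

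**Figure D5:**
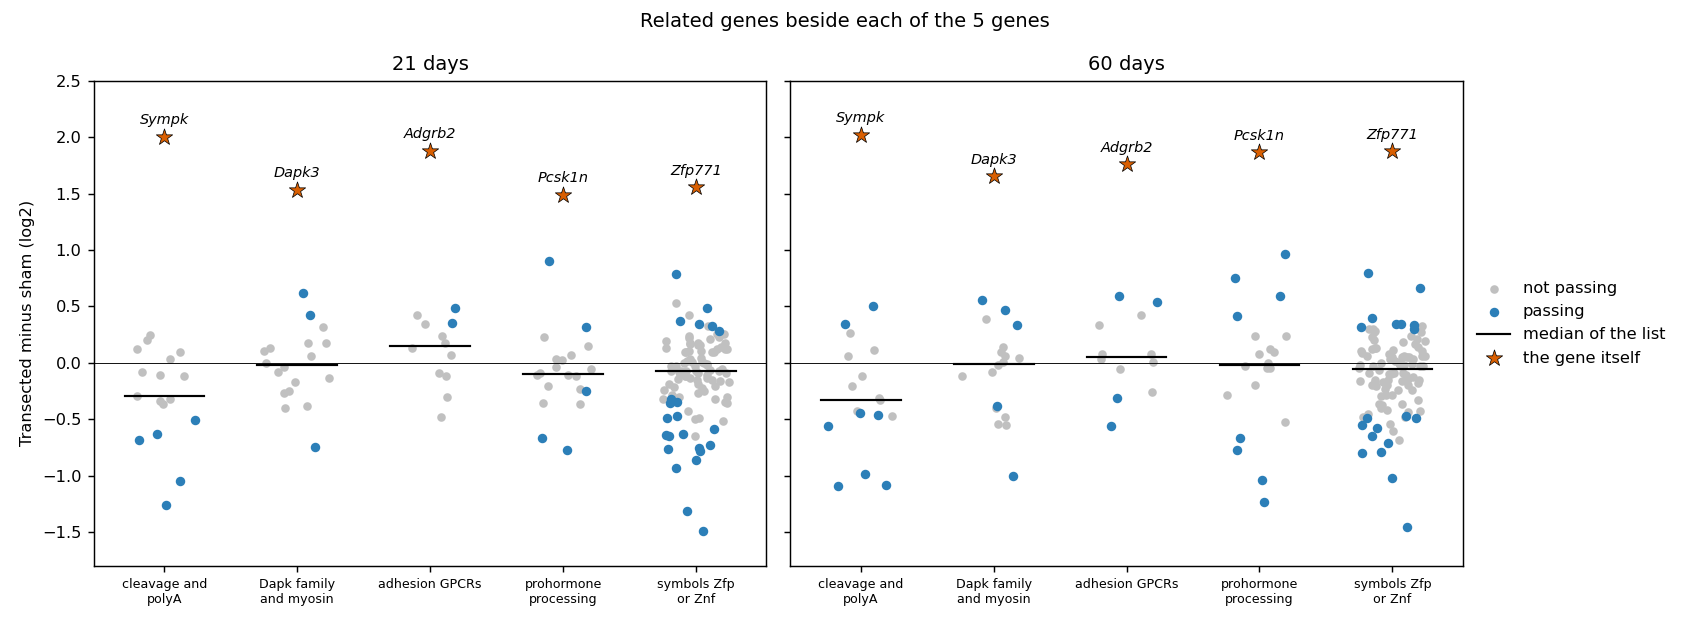
Each small point is a gene of a list and the vertical axis gives transected minus sham (log2) at 21 days (left) and 60 days (right). Blue points passed limma at an adjusted p of 0.05, black bars are list medians, and a star marks the gene each list was built around. The stars lie at 1.49 to 2.02, and the medians between -0.33 and 0.15.

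Markers of other cells were read beside the 5 genes. The mean of 9 astrocyte markers was higher in transected arrays by 0.40 at 21 days and 0.13 at 60 days, of 10 oligodendrocyte markers by 0.27 and 0.24, and of 11 microglia markers by 0.11 and 0.16. No glial list passed the exact permutation test over 24 tests, with adjusted p from 0.152 to 0.680. Of single genes, Gfap rose by 1.07 ± 0.34 at 21 days (limma adjusted p = 0.0234, not without ShamC-21 replicate 1 or 2), Mbp was at 1.08 (0.0453, a call that ended when any 1 of 13 arrays was left out) and Aif1 at -0.89 without passing. The mean of 3 blood markers differed by -0.54 at 60 days, lower in transected arrays (exact permutation p = 0.00622, adjusted 0.0249). It was 8.02 on ShamC-60 replicate 1, 7.20 on replicate 4 and 6.67 to 7.02 on the other ShamC-60 arrays. On the Spi-60 arrays it was 6.33 to 6.76. The mean of the motor neuron markers differed by -0.15 at 21 days and 0.35 at 60 days without passing (exact permutation, adjusted p = 0.122 and 0.152). At 60 days it was 8.41 on ShamC-60 replicate 4 and 9.68 to 9.94 on the other sham arrays. On the Spi-60 arrays it was 9.73 to 9.96. These tests were not run without ShamC-60 replicates 1 and 4. With the mean of the glial markers as a covariate the differences of the 5 genes lay between 1.54 and 2.09 at both days.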

How the data were processed

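The 5 genes, the gene lists and the tests were chosen with earlier results of these data known. The deposited table held 12919 probe sets as log2 signals, which the authors made by RMA per the submitters' processing notes (its version and any filter on probe sets: not given in the sources used here). No signal filter was set, and the fit used neither of the controls (6 probe sets, for beta-actin and GAPDH). Gene names came from the platform annotation: 11880 of the 12913 tested probe sets had 1 symbol, 320 several and 713 none, and the one with the highest mean stood for a gene. RefSeq identifiers were found for 11849 and changed 0 symbols. Start windows came from RefSeq's tables, and no protein sequences were used here.

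In R 4.3.3 with limma 3.58.1 (lmFit, eBayes), 1 fit without covariates held the 27 arrays in 4 groups, with 23 residual degrees of freedom. Two-sided p-values were adjusted over 12913 probe sets (Benjamini-Hochberg), with 0.05 as the threshold. The fit was tested on simulated data. The planned test of the change of the transection effect in the 5 genes is given without a p-value, since it is built from the differences that chose them. Relations were Pearson's r and Spearman's rho of deviations from group means, with 100000 permutations within groups, or all of them within a single group, in Python 3.11.15 (numpy 2.4.6, scipy 1.17.1, pandas 2.3.3; plots by matplotlib 3.10.9). The genes named are the 5, the 3 most like each, their neighbours in the order of differences, up to 4 per list and day with the smallest p among those that passed, and the fixed set Pcsk1, Pcsk2, Scg5, Cpe, Adgrb1, Adgrb3, Dapk1, Dapk2, Cpsf1, Cstf2, Cstf3, Papola, Slc18a3, Gfap, Mbp and Aif1, of which those without a single-symbol probe set are not analysed here. Adgra3, Adgrv1, Bcr and C1ql3 are named where counts of 5 or fewer were described, and markers as a check of cell identity. Cstf1, Wdr33, Cpsf7, Pabpn1 and Rbbp6 are named for their further probe sets. Arrays have no count depth, and their number limits the precision. Between pairs of arrays the correlation reached 0.989, and 0 pairs were identical. Alternatives were other scalings, array weights, a signal filter, covariates, a replicate block and samples left out.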

Additional observations from a re-analysis of the deposited data

How the results depend on the processing

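The transected minus sham differences of the 5 genes kept their direction under all 40 alternatives run at each day. Leaving out 1 array at a time gave 1.48 to 1.63 for Zfp771, 1.92 to 2.08 for Sympk, 1.48 to 1.61 for Dapk3, 1.83 to 1.96 for Adgrb2 and 1.34 to 1.63 for Pcsk1n at 21 days. Pcsk1n moved by over 1 SD in the fits with the GAPDH covariate (2.04 at 21 days, 1.34 at 60 days), without Spi-21 replicates 1 to 4 (0.88 at 21 days) and without Spi-21 replicates 5 to 8 (2.11). Each gene had 1 probe set, so an alternative with another probe set was not run. The causes of these changes were not tested.

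The sign of the 60 minus 21 day differences changed in several fits for some genes. In transected neurons Zfp771 stayed at 0.18 to 0.32 over the 40 alternatives. In sham Dapk3 stayed at -0.19 to -0.03 and Adgrb2 at 0.10 to 0.29. The change of the transection effect kept its sign for Zfp771 and Adgrb2. Within an operation only the Pcsk1n difference in transected neurons passed in any alternative run. It was 0.86 without Spi-21 replicates 1 to 4 (limma adjusted p = 0.00835, against 0.911 at most over the alternatives). Those replicates held the higher Pcsk1n values of Spi-21, so nothing is read from this p-value. In sham, the sign turned with array weights (Zfp771 0.11, Sympk 0.20, Pcsk1n 0.00126), with the GAPDH covariate (Sympk 0.0746, Pcsk1n 0.13), with the glial covariate (Zfp771 0.0242, Sympk 0.0905) and without ShamC-60 replicates 1 and 4 (0.21, 0.31 and 0.12 for Zfp771, Sympk and Pcsk1n). In transected neurons it turned with quantile normalization (Sympk -0.0231, Dapk3 -0.0172, Adgrb2 -0.0111), array weights (Sympk -0.0902, Dapk3 -0.0396), the GAPDH covariate (Sympk -0.22, Adgrb2 -0.11, Pcsk1n -0.57), without Spi-21 replicates 1 to 4 (Dapk3 -0.14) and without replicates 5 to 8 (Sympk -0.0439, Adgrb2 -0.00838, Pcsk1n -0.37). For the change of the transection effect it turned for Sympk with quantile normalization (-0.0225), array weights (-0.29), the GAPDH covariate (-0.30), the glial covariate (-0.00527), without ShamC-60 replicates 1 and 4 (-0.30) and without Spi-21 replicates 5 to 8 (-0.0418), for Dapk3 without Spi-21 replicates 1 to 4 (-0.0437), and for Pcsk1n with the GAPDH covariate (-0.70) and without Spi-21 replicates 5 to 8 (-0.24). Leaving out 1 array gave sham differences of -0.10 to 0.16 for Sympk and -0.15 to 0.0543 for Zfp771, transected differences of -0.10 to 0.12 for Sympk, -0.0531 to 0.0784 for Dapk3 and -0.0705 to 0.0918 for Adgrb2, and changes of effect of -0.15 to 0.12 for Sympk.

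The count of all probe sets that passed at 21 days, 2917, was 1811 with the signal filter (6456 probe sets tested), 463 with the beta-actin covariate and 1335 without Spi-21 replicates 1 to 4. At 60 days 2463 became 162 with the beta-actin and 869 with the GAPDH covariate and 797 without ShamC-60 replicates 1 and 4, and leaving out 1 array gave 1538 to 2760, with 1635 without ShamC-60 replicate 1 and 1538 without replicate 4. The 11 of 60 minus 21 days in transected neurons became 2 with median centring, 2 with array weights, 3 with the beta-actin, 92 with the GAPDH and 1 with the glial covariate, 4 with a trend, 1 with only the groups compared, 26 without ShamC-60 replicates 1 and 4, 630 without Spi-21 replicates 1 to 4 and 52 without replicates 5 to 8, and 1 to 83 when 1 array was left out (83 without Spi-21 replicate 4, 46 without replicate 2). The 0 in sham became 2 with array weights, and the 0 for the change of effect (limma; 905 at an unadjusted p below 0.05) became 3 with array weights and 161 without Spi-21 replicates 1 to 4.

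Over 35 pairs of same-numbered arrays the correlation of deviations ran from -0.31 to 0.33, with 9 over 0.1 and 19 below 0. Pairs with different numbers are not set beside them here, so whether replicate numbers pair the samples was not tested. With the replicate block 3226 probe sets passed at 21 days (2917 without it), 3073 at 60 days (2463 without it), 0 in sham over time, 10 in transected over time and 0 for the change of effect.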

Other observations

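The array to array variation of the 5 genes was also set against the mean level of each of 8 marker lists within the groups (40 relations over 27 arrays). All 5 genes had a negative Pearson's r with the mean of 10 markers of other neurons. It was -0.28 for Dapk3 (rho -0.24), -0.30 for Pcsk1n (rho -0.42) and -0.32 for Adgrb2 (rho -0.45). For Adgrb2 r was -0.73 without the 2 farthest arrays. For Zfp771 Pearson's r was -0.63 (permutation p = 0.00192, adjusted 0.0768), Spearman's rho was -0.68 (permutation p = 0.00055, adjusted 0.022) and r was -0.60 without the 2 farthest arrays. For Sympk r was -0.54 (adjusted permutation p = 0.09), rho was -0.56 (adjusted 0.0878) and r was -0.50 without the 2 farthest. Only the rho of Zfp771 passed. The mean of these markers was highest on ShamC-60 replicate 4, at 7.06, where Zfp771 and Sympk had the lowest value of their group.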
